A study of Caenorhabditis elegans with 2 samples.

Results

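Proteasome subunit genes were examined for regions bound by the transcription factor JUN-1 in Caenorhabditis elegans larvae. The set holds the 33 protein-coding genes of 19973 on the nuclear chromosomes whose symbols are pas-, pbs-, rpt- or rpn- followed by a number. It was divided by the structure of the particle into 14 core particle genes, 10 base genes and 9 lid genes. The experiment is a chromatin immunoprecipitation sequencing (ChIP-seq) study of strain OP234, genotype unc-119(ed3) III; wgIs234, in which eGFP-tagged JUN-1 is expressed from an integrated transgene; the promoter that drives it is not stated in the labels. The 2 biological replicates were mixed-sex, whole L3 larvae of the same strain, so no condition can be set against another. Whole animals were used, and a site occupied weakly in many cells cannot be told apart from a site occupied strongly in few.

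The proteasome degrades proteins tagged with ubiquitin. Its core particle is a barrel of alpha rings (pas genes), which gate the entrance, and beta rings (pbs genes), which hold the peptidase sites. The regulatory particle caps the barrel. Its base contains the ATPase ring (rpt genes) that unfolds substrates, with scaffold and ubiquitin receptor subunits, and its lid contains RPN-11, the enzyme that removes the ubiquitin chain. In this worm, transcription of subunit genes is known to be raised by SKN-1 when the proteasome is impaired. JUN-1 is the worm's Jun-type bZIP protein, a transcription factor that binds DNA as a dimer.

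A gene is called bound here when a peak of the authors' optimal IDR list has its summit near the 5′ end of any of its coding transcripts. The window opens 1000 bp before that end and closes 500 bp after it. IDR, the irreproducible discovery rate, is meant to keep regions that replicates rank alike. A peak of this list can still rank far apart in the 2 replicate lists, as at rpn-2 (9802 and 1018). There were 2738 peaks in the IDR list and 20820 regions in the pooled list. Replicate 1 alone gave 27417 regions and replicate 2 gave 28475. Strength is the authors' signal value, a score without a stated scale that is used here only within a list. The number of reads behind each list is unknown, so no counting error can be attached to a signal value.

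JUN-1 was found in the promoters of 11 of the 33 subunit genes (33.3%, exact 95% interval 18.0 to 51.8%), against 9.5% of all protein-coding genes. The bound genes came from every part of the particle: rpn-3, rpn-9, rpn-11 and rpn-12 of the lid, rpt-2, rpn-2 and rpt-6 of the base, and pbs-1, pbs-2, pas-4 and pas-5 of the core. Intervals cover counting error of genes only, and genes that share a peak are not independent. Of the other 22 subunit genes, 14 had a weaker pooled region in the promoter and 8 had no pooled region there. Any pooled region was present at 25 of 33 subunit genes (75.8%, interval 57.7 to 88.9%), against 39.2% of coding genes.

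**Figure D1:**
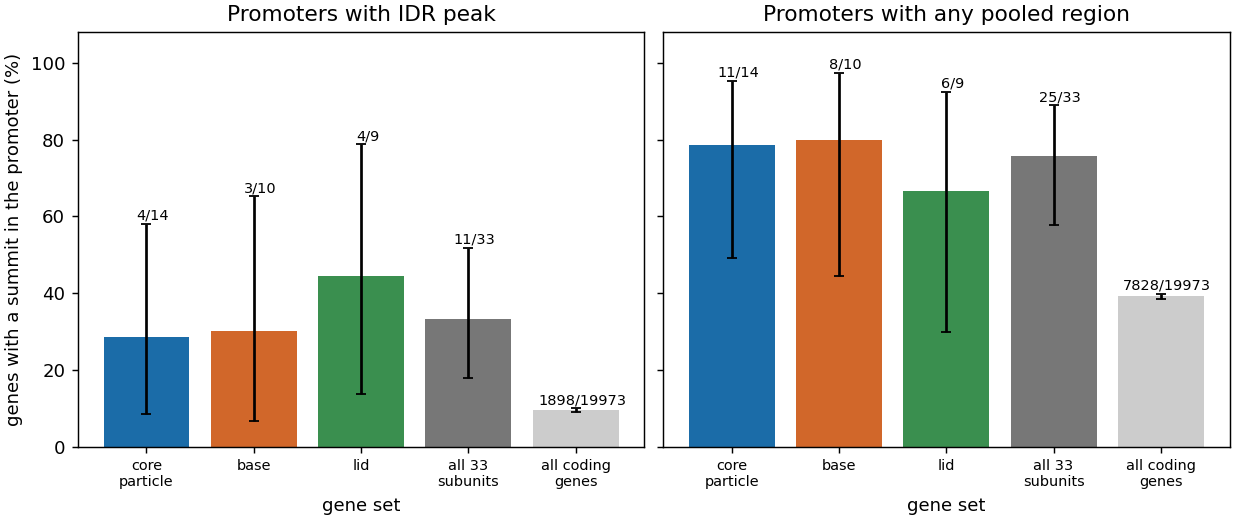
Share of genes (vertical axis, percent) with a JUN-1 summit in the promoter, for IDR peaks (left) and any pooled region (right), in the core particle, base, lid, all 33 subunit genes and all coding genes. Bars are shares, error bars are exact 95% Clopper-Pearson intervals, and the numbers give bound genes of all genes; the intervals of the 3 parts of the particle overlap widely, with 4 of 14, 3 of 10 and 4 of 9 genes bound.

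The parts of the particle were not separable by how many of their genes were bound. The lid had 4 of 9 genes bound (44.4%, interval 13.7 to 78.8%), the base 3 of 10 (30%, interval 6.67 to 65.2%) and the core particle 4 of 14 (28.6%, interval 8.39 to 58.1%). Within the core, the alpha ring had 2 of 7 genes bound and so did the beta ring, and within the base 2 of 6 ATPase genes were bound. The strongest pooled region of a gene had a median signal value of 42.5 over the 6 lid genes with one, 20.7 over 8 base genes and 18.8 over 11 core genes. These medians leave out genes with no region, 3 of 9 in the lid, 2 of 10 in the base and 3 of 14 in the core. With such genes ranked lowest, the middle lid gene was rpn-5 (22.3), the middle base genes were rpt-4 (19.8) and rpt-5 (18.8), and the middle core genes were pas-7 (18.5) and pas-3 (16.6). Over all 25 genes with a region the median was 22.3, and over the 7828 coding genes with a pooled region 17.1. The core count rests in part on replicate 2: with the 2738 strongest regions of replicate 1 alone, 2 core genes were bound in place of 4. With those of replicate 2 alone, 3 were bound.

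**Figure D2:**
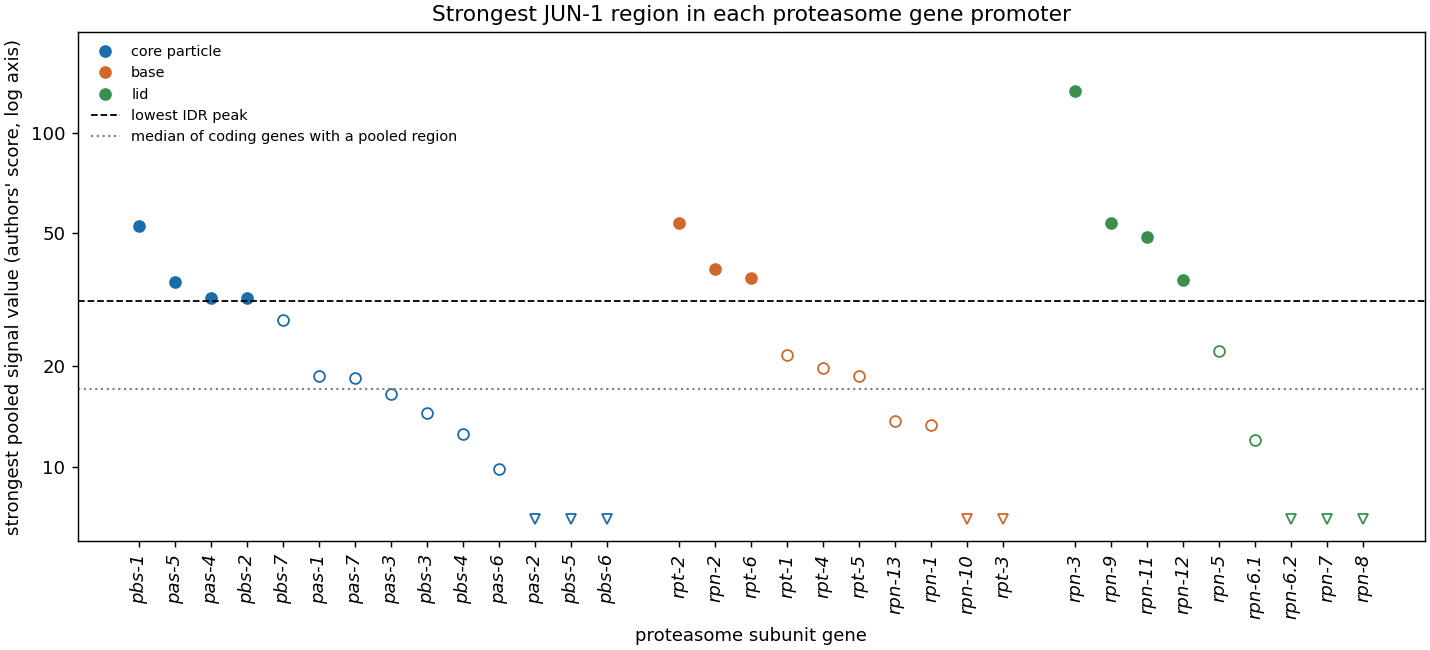
Strongest pooled signal value (authors' score, log axis) in the promoter of each of the 33 subunit genes, grouped as core particle, base and lid. Filled points have an IDR peak, open points have a pooled region but no IDR peak, and triangles at the bottom mark genes with no pooled region; the dashed line is the lowest IDR peak (31.4) and the dotted line the median over coding genes with a region (17.1). A single gene, rpn-3, lies above 100, and 10 further genes lie between the dashed line and 54.

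The lid gene rpn-3, which encodes a scaffold subunit, had the strongest region of the set. Its signal value was 134 in the pooled list, 59.3 in replicate 1 and 70.9 in replicate 2. It ranked 120 of the pooled regions, 117 in replicate 1 and 154 in replicate 2, so both replicates placed it near the top. The peak covered III 8446949 to 8447338 on ce11. Its summit lay in intergenic sequence 209 bp upstream of rpn-3 and 235 bp upstream of hsp-110, which is transcribed the other way and encodes an HSP110-type chaperone.

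The next 3 genes were nearly equal in the pooled list and far below rpn-3. The ATPase gene rpt-2 had 53.8 pooled, 26.4 in replicate 1 and 24.9 in replicate 2. The lid gene rpn-9 had 53.7 pooled, 18.0 in replicate 1 and 32.7 in replicate 2. The beta-ring gene pbs-1 had 52.7 pooled, 24.6 in replicate 1 and 27.4 in replicate 2. Their order is therefore not the same in both replicates: rpn-9 was the lowest of the 3 in replicate 1 and the highest in replicate 2. The peaks lay at V 6017623 to 6018012 for rpt-2, II 11238979 to 11239368 for rpn-9 and IV 1709756 to 1710145 for pbs-1.

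To show what these leading regions contain, the 101 bp around the summit are given for the 4 strongest genes and for rpn-12, each in the direction of the subunit gene, from build ce11. Capitals mark matches to any of 6 sites searched on both strands: the AP-1 site TGACTCA or TGAGTCA, the CRE TGACGTCA, the GATA site TGATAA, the E-box CACGTG, the repeat GAGAGAGA, and the SKN-1 site in its spellings AATATCAT, AATGTCAT, ATTATCAT, ATTGTCAT, TATATCAT, TATGTCAT, TTTATCAT and TTTGTCAT. ATTATCAT and TTTATCAT overlap with the GATA site, which they contain when read in reverse. The windows of rpn-3, rpn-9 and pbs-1 held none of the 6, and those of rpt-2 and rpn-12 each held a SKN-1 site with the letters ATTGTCAT, beginning 26 bp downstream and 19 bp upstream of the summit.
rpn-3, plus strand, chrIII:8447094-8447194: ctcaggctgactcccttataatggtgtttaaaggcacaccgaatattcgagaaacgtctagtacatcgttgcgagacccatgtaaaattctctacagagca
rpt-2, minus strand, chrV:6017768-6017868: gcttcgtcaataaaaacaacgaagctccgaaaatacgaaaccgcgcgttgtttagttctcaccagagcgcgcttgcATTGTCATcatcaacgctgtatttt
rpn-9, minus strand, chrII:11239124-11239224: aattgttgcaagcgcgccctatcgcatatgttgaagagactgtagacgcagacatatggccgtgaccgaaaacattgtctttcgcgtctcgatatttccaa
pbs-1, minus strand, chrIV:1709901-1710001: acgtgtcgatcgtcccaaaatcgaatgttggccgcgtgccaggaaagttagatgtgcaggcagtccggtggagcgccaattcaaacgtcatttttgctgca
rpn-12, plus strand, chrII:11652957-11653057: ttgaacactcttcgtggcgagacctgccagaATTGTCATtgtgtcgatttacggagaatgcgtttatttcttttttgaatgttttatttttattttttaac

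The AP-1 site was in none of the 11 windows of bound subunit genes, against 3.40% of all 2738 IDR peaks and 3.29% of the 1581 IDR peaks in promoters. The CRE, GATA, E-box and GAGA sites were also in none of the 11 windows; all IDR peaks held them in 1.13%, 24.0%, 6.98% and 6.28%. The exact 95% interval for 0 of 11 runs up to 28.5% and holds each of these shares, so the 11 windows do not establish a lower share. The SKN-1 site was in 2 of 11 (18.2%, interval 2.28 to 51.8%), against 5.77% of all IDR peaks, and in 2 of the 14 windows of subunit genes with a pooled region but no IDR peak (14.3%). Windows were then widened to 195 bp on each side, about the width of a peak. The AP-1, CRE, E-box and GAGA sites were still in 0 of 11. All IDR peaks then held them in 7.999%, 3.07%, 15.05% and 15.3%, shares that the interval for 0 of 11 also holds. The GATA site was in 3 of 11 (rpt-6, rpn-11 and rpn-12). That share (27.3%, interval 6.02 to 60.97%) was below the 48.8% of all IDR peaks, which the interval holds. GC content averaged 40.0% in the windows of bound subunit genes, 43.7% in all IDR peaks and 35.7% in the 17626 pooled regions that overlap no IDR peak.

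The remaining lid genes with a peak were rpn-11 and rpn-12. The deubiquitinase gene rpn-11 had 48.7 pooled, 16.1 in replicate 1 and 32.99 in replicate 2, with its summit 20 bp upstream of a 5′ end, the closest of the set. The lid subunit gene rpn-12 had 36.2 pooled, 17.0 in replicate 1 and 18.3 in replicate 2. Its peak, at II 11652812 to 11653201, lay 117 bp upstream of rpn-12 and 278 bp upstream of rad-23 on the other strand, which encodes a shuttle factor that carries ubiquitin-tagged proteins to the proteasome.

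In the base, the other bound genes were rpn-2 and rpt-6. The scaffold gene rpn-2 had 39.2 pooled, 6.72 in replicate 1 and 33.1 in replicate 2. The replicates differed most here: its region ranked 9802 in replicate 1, with a −log10 q of 0.479, and 1018 in replicate 2, with a −log10 q of 3.67. Among the 11 bound genes rpn-2 had the lowest value in replicate 1 and the second highest in replicate 2. The ATPase gene rpt-6 had 36.8 pooled, 19.3 in replicate 1 and 18.9 in replicate 2, with the peak 296 bp upstream at III 12369965 to 12370354.

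The core genes other than pbs-1 had peaks near the lower end of the IDR list. The alpha-ring gene pas-5 had 35.9 pooled, 18.8 in replicate 1 and 17.3 in replicate 2. Its summit was the most distant of the set, 920 bp upstream and inside the snoRNA gene F25H2.15, and this peak lay outside the window when that began 500 bp upstream. The alpha-ring gene pas-4 had 32.1 pooled, 9.53 in replicate 1 and 21.5 in replicate 2. The beta-ring gene pbs-2 had 32.0 pooled, 9.41 in replicate 1 and 20.7 in replicate 2, just inside the IDR list, whose lowest peak had 31.4. The strongest gene outside the list was pbs-7, also of the beta ring, with 27.5 pooled, 12.4 in replicate 1 and 14.2 in replicate 2.

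Apart from rpn-3, the bound subunit genes sat in the middle and lower range of the bound genes. Their median signal value was 39.2, against 48.9 for all 1898 bound coding genes, and 5 of the 11 were above the IDR median of 47.7. Of the 11, 5 had a summit within 200 bp in the 2738 strongest regions of both replicates (45.5%, interval 16.7 to 76.6%), against 68.1% of all bound genes. These were rpn-3, rpt-2, rpn-9, pbs-1 and rpn-11. In replicate 1 only, 3 were among those strongest regions: rpt-6, rpn-12 and pas-5, whose replicate 2 ranks were 2811, 2971 and 3193. In replicate 2 only, 3 were: rpn-2, pas-4 and pbs-2, whose replicate 1 ranks were 9802, 5239 and 5342. The 2 replicate lists were derived from their own alignments and the same control file, per the text files deposited with them.

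**Figure D3:**
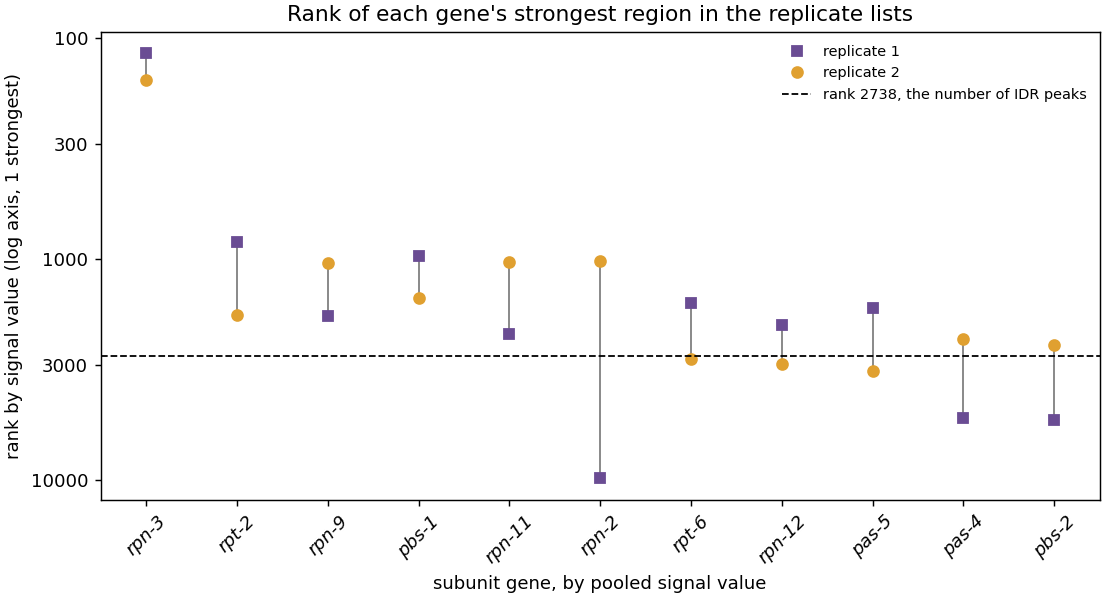
Rank by signal value (log axis, rank 1 strongest and at the top) of the strongest region at each of the 11 bound subunit genes in replicate 1 (squares) and replicate 2 (circles), joined by a line. The dashed line marks rank 2738, the number of IDR peaks; 5 genes have both points above it, and rpn-2 has the longest line, with rank 9802 in replicate 1 and 1018 in replicate 2.

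Peaks at subunit genes were upstream of the gene and mostly between a pair of diverging genes. All 11 summits lay upstream of the nearest 5′ end, as did 91.6% of the strongest peaks of all bound genes, and the median distance was 209 bp against 247 bp. The same summit lay in the promoter of a gene on the other strand at 8 of 11 (72.7%, interval 39.0 to 94.0%), against 38.4% of all bound genes. The genes on the other side were hsp-110 at rpn-3, aps-1 at rpt-2, T06D8.9 at rpn-9, K08D12.3 at pbs-1, C23G10.7 at rpn-2, rad-23 at rpn-12, rpb-3 at pas-4 and eif-6 at pbs-2. Of these, aps-1 encodes a clathrin adaptor subunit, rpb-3 an RNA polymerase II subunit and eif-6 a ribosome biogenesis factor. The summit was nearer to the 5′ end of C23G10.7 (362 bp) than to that of rpn-2 (408 bp), and nearer to eif-6 (304 bp) than to pbs-2 (362 bp). In the other 6 the subunit gene was nearer, narrowly so at rpt-2 (149 bp, against 152 bp for aps-1). Summits at rpt-2 and pas-4 fell in the annotated ncRNA genes F29G9.10 and C36B1.16. The lists do not tell which of the diverging genes a peak belongs to.

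**Figure D4:**
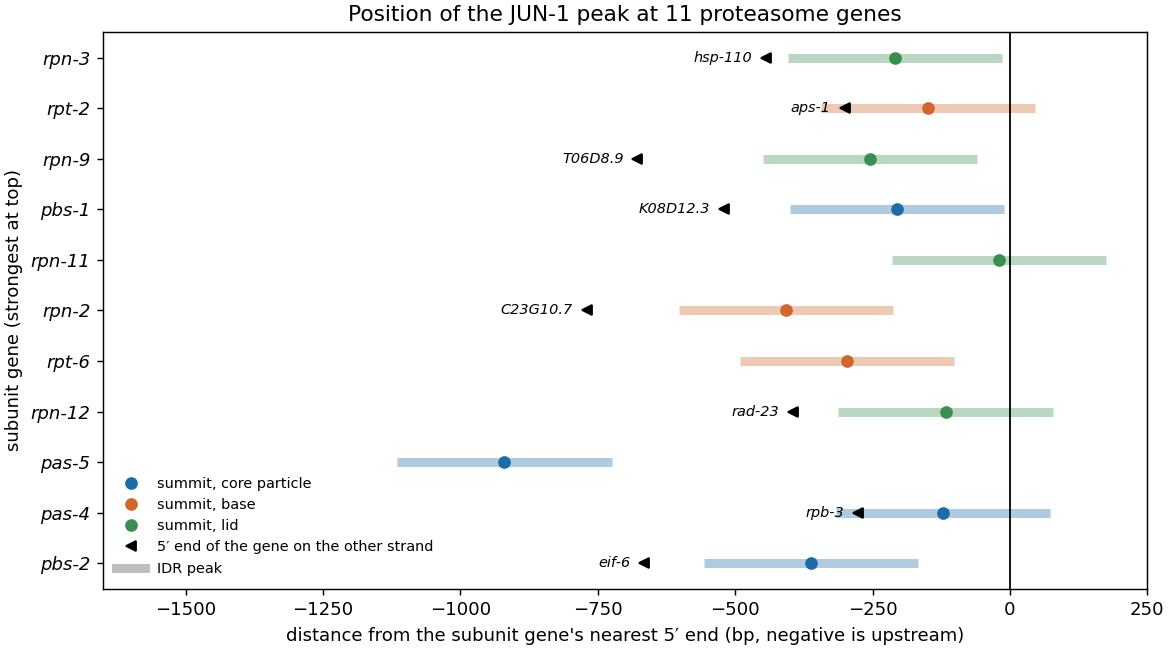
Position of the IDR peak (bar) and its summit (point) at the 11 bound subunit genes, as distance in bp from the subunit gene's nearest 5′ end at 0, negative values upstream, with the strongest gene at the top. Black triangles mark the 5′ end of the gene on the other strand that shares the summit; 8 genes have one, and the pas-5 summit at -920 is the farthest upstream.

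Most subunit genes had a diverging neighbour. The nearest coding gene upstream was on the other strand for 23 of 33 subunit genes (69.7%), against 46.2% of coding genes. In that arrangement 9 of 23 subunit genes were bound (39.1%, interval 19.7 to 61.5%), against 12.4% of 9235 coding genes. With the upstream gene on the same strand, 2 of 10 subunit genes were bound (20%, interval 2.52 to 55.6%), against 7.03% of 10733 coding genes, a share within that interval. These 2 were pas-5 and rpn-11. Here the median gap to the upstream gene was 171 bp for subunit genes, against 785 bp for coding genes. With such gaps, a window that opens 1000 bp upstream reaches into the upstream gene. With the upstream gene on the other strand, the median gap to it was 443 bp for subunit genes, against 1174 bp for coding genes. Among bound genes in that arrangement it was 519 bp, against 760 bp. The part that gene arrangement and gap length have in the share bound, or in the share of summits shared between genes, was not tested.

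Among the 14 subunit genes with a pooled region but no IDR peak, values ran from 27.5 at pbs-7 to 9.85 at pas-6. After pbs-7 came the lid gene rpn-5 with 22.3 pooled, 8.01 in replicate 1 and 12.3 in replicate 2. The ATPase gene rpt-1 had 21.6 pooled, 5.67 in replicate 1 and 17.5 in replicate 2. The ATPase gene rpt-4 had 19.8 pooled, 6.37 in replicate 1 and 10.5 in replicate 2. The alpha-ring gene pas-1 had 18.8 pooled, 3.60 in replicate 1 and 13.2 in replicate 2. Its region ranked 27207 in replicate 1 and 4896 in replicate 2, and that of rpt-1 ranked 13316 in replicate 1 and 3153 in replicate 2. All 5 had a higher value than the median coding gene with a pooled region (17.1). The other 9, in falling order, were rpt-5 (also 18.8), pas-7, pas-3, pbs-3, rpn-13, rpn-1, pbs-4, rpn-6.1 and pas-6.

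No pooled region was listed at 8 subunit genes, namely pas-2, pbs-5, pbs-6, rpt-3, rpn-10, rpn-6.2, rpn-7 and rpn-8. Of these, pbs-5 and rpn-7 had no region in any list, and the other 6 had a region in the list of at least a single replicate. A region in replicate 1 was listed at 25 of 33 subunit genes, against 45.5% of coding genes, and in replicate 2 at 27 of 33, against 45.8% of coding genes. The paralogs rpn-6.1 and rpn-6.2, which encode forms of a lid subunit, had 12.1 pooled and no pooled region. Nearest IDR summits to the 22 unbound subunit genes lay 2121 to 66147 bp from a 5′ end (median 14265 bp, against 17265 bp for unbound coding genes), and 4 genes, rpt-1, rpn-8, rpn-13 and rpn-7, had one within 5 kb (18.2%, against 17.0% of unbound coding genes).

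SKN-1 sites were looked for in promoters of fixed length, since SKN-1 is the known regulator of this gene set. The promoter was taken as 250 bp before to 50 bp after the 5′ end of the gene record, so the bases searched do not depend on where JUN-1 regions lie. This window was chosen after the sites around summits had been seen. A site in any of the 8 spellings was present at 11 of 33 subunit genes (33.3%, interval 18.0 to 51.8%), against 16.5% of all coding genes. Bound subunit genes had it at 6 of 11 (54.5%, interval 23.4 to 83.3%), those with a pooled region but no IDR peak at 2 of 14 (14.3%), and those with no pooled region at 3 of 8 (37.5%). Over all 1898 bound coding genes the share was 15.1%, no higher than over all coding genes. By part of the particle, the site was at 4 of 9 lid genes, 3 of 10 base genes and 4 of 14 core genes. These groups are small and their intervals overlap. The gap between bound genes and those with a weaker region depended on the bases searched. Within 50 bp of summits the site was at 2 of 11 and 2 of 14. Within 195 bp of summits it was at 6 of 11 and 8 of 14. In promoters of 500 bp it was at 7 of 11 and 4 of 14.

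The spelling ATTGTCAT recurred in the set. It was in the promoters of 5 subunit genes (15.2%), against 1.93% of all coding genes, and was singled out after the sites had been seen. Of the 5, 4 were bound by JUN-1: pbs-1, rpn-11, rpn-12 and rpt-2. Among all 385 coding genes with this spelling, 10.6% were bound, near the 9.5% of all genes. The fifth, the alpha-ring gene pas-2, had no pooled region. TTTGTCAT was at 3 subunit genes (rpn-2, pbs-6 and pas-6), AATATCAT at 2 (rpt-6 and rpn-8) and TTTATCAT at rpn-5. Of these 11 sites, 10 are printed, all but that of rpn-8. They are given with 10 bp on each side, from build ce11, so that their flanks can be compared, each read on the strand that spells the capitals.
pbs-1, 145 bp before the 5′ end, chrIV:1709873-1709900: cagaaaaaacATTGTCATcaaatctcaa
rpt-2, 123 bp before, chrV:6017775-6017802: gcgcgcttgcATTGTCATcatcaacgct
rpn-12, 136 bp before, chrII:11652978-11653005: acctgccagaATTGTCATtgtgtcgatt
rpn-11, 24 bp after, chrII:4044505-4044532: gtaccccgcaATTGTCATcctcacaatt
pas-2, 111 bp before, chrV:10770247-10770274: acccggtgaaATTGTCATcattcgaact
rpn-2, 232 bp before, chrIII:6198942-6198969: ttggacgaaaTTTGTCATtcgcaatcat
pbs-6, 56 bp before, chrIII:8244131-8244158: ttaattgaatTTTGTCATattgaatatt
pas-6, 196 bp before, chrV:5584522-5584549: actcgcttatTTTGTCATcctttcaaat
rpt-6, 196 bp before, chrIII:12370250-12370277: ctccggttgaAATATCATcatttttaaa
rpn-5, 219 bp before, chrII:4698629-4698656: tttttgctctTTTATCATgttttctcag

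**Figure D5:**
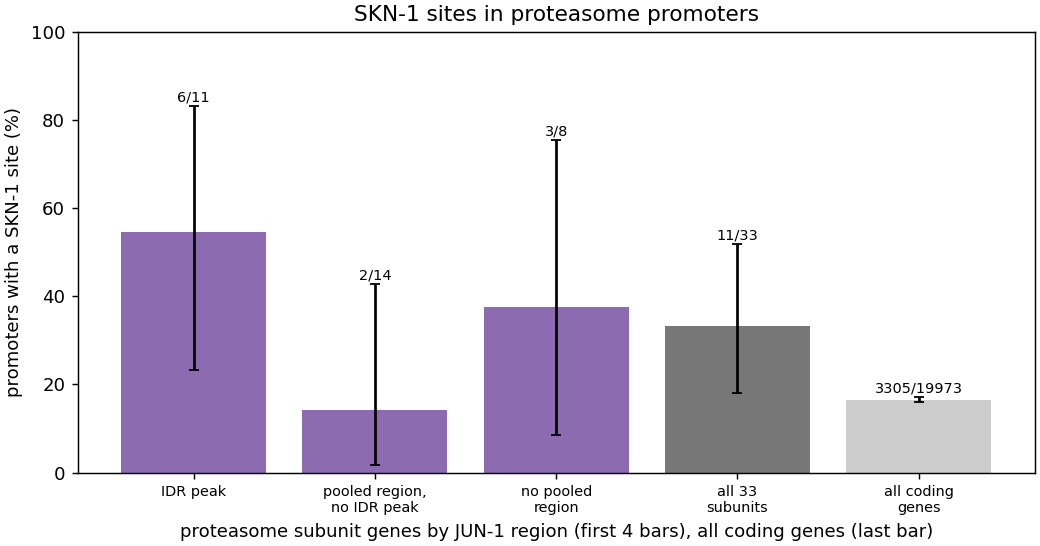
Share of promoters (vertical axis, percent; 250 bp before to 50 bp after the 5′ end) with a SKN-1 site among subunit genes with an IDR peak, with a pooled region only, with no pooled region, among all 33 subunit genes and among all coding genes. Error bars are exact 95% Clopper-Pearson intervals; 6 of 11 bound subunit genes and 2 of 14 with a weaker region held a site, with overlapping intervals.

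Of the other 5 sites, the AP-1 site and the GAGA repeat were in none of the 33 subunit promoters, against 3.63% and 3.54% of coding genes. The CRE was in 1 (3.03%), against 1.53%, the E-box in 1 (3.03%), against 5.84%, and the GATA site in 10 (30.3%), against 30.3%. The 95% interval for 0 of 33 runs up to 10.6%. It is 0.0767 to 15.8% for 1 of 33 and 15.6 to 48.7% for 10 of 33. Each holds the share of coding genes, so these counts do not separate subunit promoters from the rest.

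A list of 20 genes that work with the proteasome was drawn up with earlier results of these data known, so its share bound describes the list only. Of the 20, 10 had an IDR peak in the promoter (50%, interval 27.2 to 72.8%), against 9.5% of coding genes. The strongest was ubql-1, a ubiquilin-type shuttle factor gene (132 pooled, 55.3 in replicate 1 and 76.3 in replicate 2), close to rpn-3. Its summit lay in annotated ncRNA sequence, 512 bp upstream of ubql-1 and 663 bp upstream of pdi-3 on the other strand. The ubiquitin-conjugating enzyme gene let-70 followed (110 pooled, 52.5 and 57.9 in replicates 1 and 2). That summit was nearer to klc-1 on the other strand (715 bp) than to let-70 (767 bp). The ubiquitin genes ubq-2 (61.7 pooled, 32.9 and 29.5) and ubq-1 (36.5 pooled, 17.0 and 22.0) were bound as well. So were skn-1 itself (56.7 pooled, 14.9 and 43.8) and wdr-23, which encodes a repressor of SKN-1 (105 pooled, 44.2 and 61.4). The skn-1 and ubq-1 summits lay in introns of those genes, 581 bp and 250 bp upstream of a 5′ end inside the gene. At ubq-2 the summit was nearer to frg-1 on the other strand (189 bp) than to ubq-2 (450 bp). The lists do not tell which gene a shared peak belongs to. The replicate 2 value of ubq-1 (22.0) was for a region 297 bp after a 5′ end, and the region nearest the peak had 16.3.

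The other 4 bound genes of this list were ecps-1, an ECM29-type proteasome adaptor gene (55.0 pooled, 21.1 and 37.1), the ubiquitin ligase gene ufd-2 (40.0 pooled, 11.9 and 27.1), aip-1 (38.7 pooled, 17.8 and 24.6) and rad-23, which has the same peak as rpn-12. The replicate 1 region of ufd-2 (11.9) had its summit 213 bp from that of the peak, and no replicate 1 summit lay within 200 bp. The summits at ecps-1 (217 bp) and aip-1 (61 bp) were also in the promoters of atx-2 (621 bp) and ddx-17 (220 bp) on the other strand. Not bound were the ubiquitin-activating enzyme gene uba-1 (30.6 pooled, 10.4 and 19.99), just under the lowest IDR peak, and the deubiquitinase gene usp-14 (25.5 pooled, 14.01 and 13.4). The small lid subunit gene dss-1 had 11.3 pooled, no replicate 1 region and 6.39 in replicate 2, and its symbol leaves it outside the 33. The protease gene ddi-1, needed to activate SKN-1 when the proteasome is impaired, had 10.9 pooled. sel-1 (18.4 pooled) and ubh-4 (8.76 pooled) were also without an IDR peak, and ecps-2, png-1, psmd-9 and sel-11 had no pooled region.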

How the data were processed

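Per the text files deposited with the samples, each replicate's peaks were derived from its own alignments plus a control shared by both, the pooled list from both replicates, and the IDR list from these lists. The authors' narrowPeak files give a signal value (a score, scale not stated) and the −log10 of a q-value. The peak caller, the aligner and how deeply each library was sequenced: not given in the sources used here. All coordinates are ce11, the build of WBcel235; genes are from Ensembl release 115 and bases from the RefSeq copy of that assembly. For each gene the strongest region with its summit in the promoter window was taken. Sites were searched within 50 bp of summits and in fixed promoters. Shares carry exact 95% Clopper-Pearson intervals. No test was run: there is 1 group, and the members, lists and sites were chosen with earlier results of these data known. All 33 members were accounted for. Bound members, the 5 strongest others and those without a pooled region were named. The assignment of summits to genes was tested on simulated data. Intervals came from scipy 1.17.1, figures from matplotlib 3.10.9, and tables from pandas 2.3.3 with numpy 2.4.6, under Python 3.11.15.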

Additional observations from a re-analysis of the deposited data

How the results depend on the processing

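The count of 11 bound subunit genes stayed within 1.5 times under windows beginning 500 bp (10 genes, against 7.52% of coding genes) or 2000 bp upstream (11, against 12.3%), with the 5′ end of the gene record only (11, against 8.74%), the nearest 5′ end only (9, against 7.40%) and any overlap of the peak with the window (11, against 10.2%). It was 8 with either replicate alone, against 9.43% of coding genes without replicate 1 and 8.85% without replicate 2; those counts ranged from 2 to 3 for the core, were 2 for the base and ranged from 3 to 4 for the lid. With the 1369 strongest IDR peaks, 5 subunit genes were bound, with 1 in the core and 1 in the base, against 4.95% of coding genes; the stricter list holds fewer peaks by construction. Without rpn-10 and rpn-13, 3 of 8 base genes were bound.

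Counts of sites moved with the length searched. With 25 bp on each side of the summit, the SKN-1 site was at 1 of 11 bound subunit genes in place of 2. All IDR peaks held it in 2.56%, against 5.77% with 50 bp. With 100 bp, it was at 4 of 11, and at 4 of 14 with a pooled region but no IDR peak, where the GATA site was at 1 of 11 and 2 of 14. With 195 bp, chosen after seeing the data, the GATA site was at 3 of 11 and 5 of 14 (48.8% of IDR peaks). The SKN-1 site was then at 6 of 11 and 8 of 14 (19.7% of IDR peaks). With promoters of 500 bp, the site was at 14 of 33 subunit genes (42.4%), against 27.6% of coding genes, and so the gap to all genes was narrower in ratio than with 250 bp. It was at 5 of 10 base genes and 4 of 14 with a weaker region. With 250 bp and without the spellings that hold the GATA site, it was at 10 of 33 (30.3%), against 11.5%, and at 1 of the 14 with a weaker region. The fixed promoters and both of their alternatives were also chosen after seeing the data. The strongest pooled region of pas-5 was 22.3 in the 500 bp window and 72.9 in the 2000 bp window. Read depth limits every rank near the end of a list, and it is unknown here.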
